A study of Mus musculus with 24 samples.

Results

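Nr2f1 and Nr2f2 encode COUP-TFI and COUP-TFII, a pair of closely related orphan nuclear receptors. Their chromatin was described here from 661 called peaks, out of 368246 in 7 ChIP-seq peak lists. Peaks were chosen by position: any peak overlapping the gene body of either gene or the 500 kb on either side of it in the mm10 (GRCm38) assembly. The window of Nr2f1 (ENSMUSG00000069171, chr13:78188973-78199757, minus strand) held 185 peaks, and that of Nr2f2 (ENSMUSG00000030551, chr7:70351944-70366735, minus strand) held 476. The Nr2f2 locus was selected because the stretch of chromosome 7 from 70 to 75 Mb held an excess of limb H3K27ac peaks called in WT and not in Shh-/-, so that excess is given below as a description of how the locus was picked and supports nothing. Distances are given from the gene start, and because both genes lie on the minus strand, upstream means toward higher coordinates.

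COUP transcription factors bind direct repeats of the sequence AGGTCA, act mostly as repressors and can compete with retinoid receptors for their sites. COUP-TFII is known for venous identity of vessels and for roles in limb mesenchyme and muscle, and COUP-TFI for patterning of the cortex and sensory organs. H3K27ac marks active promoters and enhancers, H3K4me2 marks promoters and enhancers whether active or poised, and H3K27me3 is laid down by Polycomb repressive complexes.

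The limb lists came from whole forelimb buds at E10.5 (32 to 35 somites) on a Swiss Webster background, with about 400000 cells per ChIP. Buds of several embryos were pooled, and the study's methods describe the WT controls as WT and heterozygous littermates together, set against littermates homozygous for a Shh null allele (Shh-/-). H3K27ac and H3K4me2 were profiled in WT and Shh-/-, and H3K27me3 in Shh-/- alone, so that mark allows no comparison between genotypes. The remaining 2 lists were H3K27ac in NIH3T3 cells, a mouse embryonic fibroblast line, kept in low serum for 48 hours with 400 nM purmorphamine, an agonist of the hedgehog transducer Smoothened, or with DMSO as the control. The labels of both NIH3T3 conditions also name LIF, and each ChIP used about 1000000 cells. The H3K27ac antibody differed between limb and NIH3T3.

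Each condition had 2 ChIP libraries, but both entered a single pooled list, so no spread between replicates could be computed and no difference between conditions was tested. Intervals in brackets are 95% Wilson intervals, which cover counting error only, and read depth is unknown from the lists. They count each peak as independent, although neighbouring peaks were often pieces of the same marked region, so they may be too narrow. In tissue from whole buds, fewer cells carrying a mark and less mark per cell cannot be told apart. Promoters of 6 of 6 limb mesenchyme genes (Prrx1, Tbx5, Hand2, Fgf10, Lmx1b, Msx1) had H3K27ac in both genotypes. Among direct hedgehog targets, Gli1 had promoter H3K27ac in the WT limb and purmorphamine lists and none in the Shh-/- and control lists, Ptch1 had it in all 4 lists and Hhip in none. Among 6 endothelial genes (Pecam1, Cdh5, Kdr, Tek, Tie1, Emcn) 1 had a weak promoter H3K27ac peak in each genotype, Cdh5 at rank 48810 in WT and Pecam1 at rank 24616 in Shh-/-. For 4 muscle precursor genes the count was 0 in WT and 2 in Shh-/-, and for 4 ectodermal genes 0 in both. The 2 were also weak, Pax3 at rank 42250 and Lbx1 at best rank 33128 of 43916. The part of these cell types in the results below was not tested.

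The sequences that the results below turn on are shown first, read from GRCm38. All come from the distal regions. GACCACCCA is the consensus of GLI proteins, the transcription factors of the hedgehog pathway. Only 2 of the 661 peaks held an exact match on either strand, both of them purmorphamine peaks upstream of Nr2f2 with no control peak. They are shown on the strand of the match, with the 9 matching bases in capitals and 30 bases on either side.
GLI match 60.3 kb upstream (chr7:70426896-70426964, minus strand): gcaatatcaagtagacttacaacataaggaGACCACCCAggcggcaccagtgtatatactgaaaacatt
GLI match 149.7 kb upstream (chr7:70516667-70516735, minus strand): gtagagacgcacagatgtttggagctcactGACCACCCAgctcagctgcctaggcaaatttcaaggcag
The third sequence is the 200 bases around the summit of the best-ranked WT limb H3K27ac peak among those more than 50 kb upstream of Nr2f2 (chr7:70624858-70625057, plus strand, between genes), with no exact GLI or AGGTCA match.
Nr2f2 distal limb peak: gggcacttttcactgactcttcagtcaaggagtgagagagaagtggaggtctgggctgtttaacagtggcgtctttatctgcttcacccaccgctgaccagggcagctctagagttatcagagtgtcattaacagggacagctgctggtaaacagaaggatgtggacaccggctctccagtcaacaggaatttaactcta
The last is the corresponding stretch of the best-ranked WT limb peak downstream of Nr2f1, in an intron of Fam172a (chr13:77892128-77892327, plus strand), with its AGGTCA in capitals.
Fam172a intronic peak: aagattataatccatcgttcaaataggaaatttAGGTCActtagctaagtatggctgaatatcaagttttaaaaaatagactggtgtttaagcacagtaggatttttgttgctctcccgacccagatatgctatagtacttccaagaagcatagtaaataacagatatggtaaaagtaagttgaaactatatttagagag

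At Nr2f2 the limb H3K27ac lists shared a strong core over the gene and differed away from it, mainly upstream. The WT list held 48 peaks covering 22.5 kb in the window and the Shh-/- list 19 peaks covering 10.9 kb. Of the WT peaks 34 overlapped no Shh-/- peak, 70.8% (56.8 to 81.8), beside 48.5% of all 49679 WT peaks. In the other direction 5 of 19 Shh-/- peaks overlapped no WT peak, 26.3% (11.8 to 48.8), beside 38.4% of all 43916 Shh-/- peaks. Set against windows of the same kind around all 21938 protein-coding genes, 24 genes (0.109%) had a larger surplus of WT over Shh-/- peaks than the 29 at Nr2f2, where the median surplus was 2. More than 50 kb downstream of the gene body the lists held few and weak peaks, 6 in WT covering 1.15 kb (best rank 29775) and 1 in Shh-/-. Of the 6, 5 overlapped no Shh-/- peak, 83.3% (43.6 to 97.0), an interval that includes the 48.5%. These counts belong to the contrast that picked the locus.

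**Figure D1:**
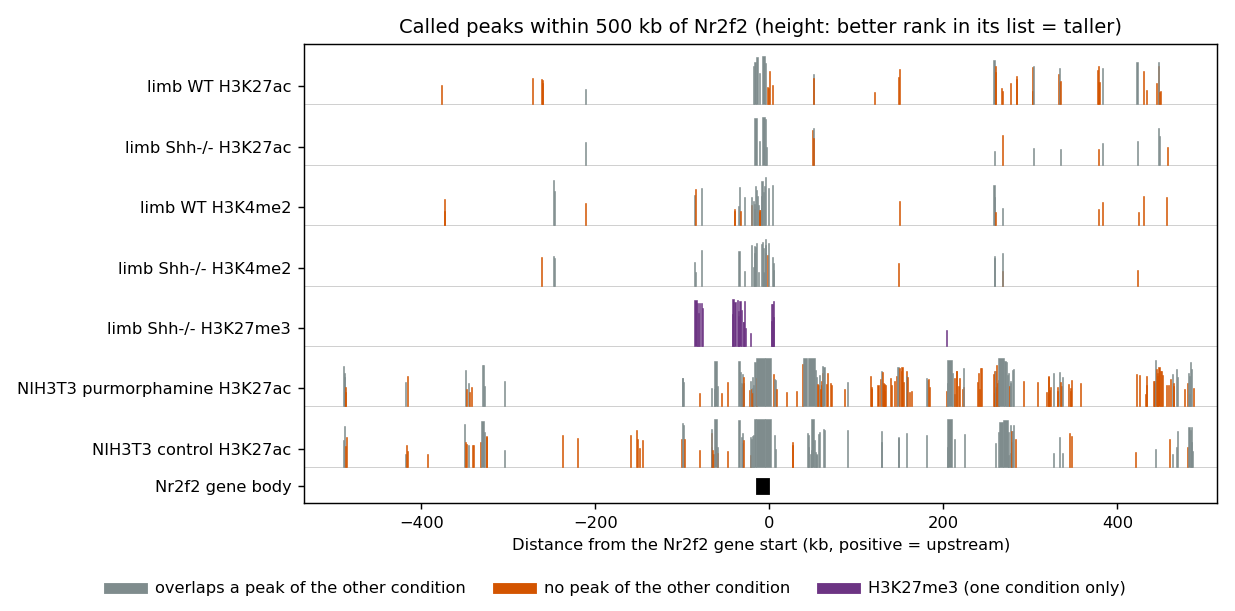
Peaks of the 7 lists by distance from the Nr2f2 gene start (x axis, kb, positive values upstream), a row for each list; taller bars have a better rank in their list, grey bars overlap a peak of the other condition, orange bars do not, and H3K27me3, profiled in a single genotype, is purple. Peaks narrower than the line are drawn at line width. The limb H3K27ac rows share the bars over the gene, and the WT row has 27 peaks from 200 to 500 kb upstream where the Shh-/- row has 10.

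Nr2f2 has 2 annotated starts, an upstream one at the gene start and a downstream one inside the gene. The core overlapped the downstream start and coding exons of the gene, though not the coding exon at the upstream start. In WT the best-ranked peak of the window (chr7:70358250-70361699, 3450 bp, exons with coding and untranslated sequence of Nr2f2) ranked 357 of 49679, with a largest log2 ratio of ChIP to input of 6.37. The overlapping Shh-/- peak (chr7:70358050-70361199, 3150 bp) ranked 927 of 43916, with a log2 ratio of 5.58. These ranks stood at 0.719% and 2.11% of the lists. Over the 3′ end of the gene the best WT peak (chr7:70351050-70353649, 2600 bp) ranked 1191 with a log2 ratio of 5.77, and the Shh-/- peak there (chr7:70348850-70352499, 3650 bp) ranked 2421 with 4.95. Joined over gaps of up to 1 kb into elements, the start region covered 4150 bp in WT and 4250 bp in Shh-/-, and the 3′ element 5000 bp and 4000 bp.

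The upstream start was different. Just inside the gene WT had narrow peaks (chr7:70365650-70365899, rank 43335, log2 ratio 2.60, and chr7:70366200-70366399, rank 20004, log2 ratio 3.29), and Shh-/- had none there, its nearest peak ending 3651 bp from the second. H3K4me2 was called over this start in both genotypes, as 1800 bp in WT (chr7:70364900-70366699, rank 10984, log2 ratio 3.54) and 1800 bp in Shh-/- (chr7:70365000-70366799, rank 5663, log2 ratio 3.97). The start without much acetylation thus still carried the mark of promoters.

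More than 50 kb upstream of the gene body, the WT list held 31 H3K27ac peaks covering 11.2 kb and the Shh-/- list 11 covering 2.00 kb. No overlap with a Shh-/- peak was found for 25 of the 31, 80.6% (63.7 to 90.8). No protein-coding gene other than Nr2f2 was annotated in the window, so these peaks lay between genes or in introns of long noncoding transcripts. Joined over gaps of up to 1 kb, and leaving out 1 peak of each genotype that belonged to an element centred 50.0 kb from the start, they made 16 elements. Of these 7 held only WT peaks, 1 only a Shh-/- peak, and 8 held both. The whole-list share of elements called in a single genotype was not computed.

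In each of those 8 elements WT covered more base pairs than Shh-/-, where 59.7% of the 18635 such elements in the whole lists had more coverage in WT. The elements come from the lists whose contrast picked the locus, so this too is a description. At the element 258.7 kb upstream (chr7:70624300-70626599), whose summit sequence is printed above, WT covered 1800 bp with a best rank of 5853 and a log2 ratio of 4.50. Shh-/- covered 100 bp there, with rank 41772 and a log2 ratio of 2.43. At 422.7 kb (chr7:70788600-70790349) coverage was 1750 bp in WT and 450 bp in Shh-/-, with log2 ratios of 4.26 and 2.77. At 447.4 kb (chr7:70812950-70815399) it was 1500 bp and 650 bp, with 4.25 and 3.39, the strongest of the distal elements in Shh-/-. At 302.6, 333.1, 377.7 and 382.2 kb WT covered 1200, 850, 700 and 750 bp and Shh-/- 100 bp at each. The element 267.0 kb upstream went the other way in height, with a log2 ratio of 2.60 in WT and 2.97 in Shh-/-, although it was wider in WT (250 bp and 100 bp).

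Over the 8 elements the median difference in log2 ratio, WT minus Shh-/-, was 1.06, and 0.24 over all elements called in both genotypes. Their median rank was at 27.1% of the WT list and 80.0% of the Shh-/- list, where the medians over all such elements were 23.9% and 28.2%. At the 3 elements within 50 kb of the gene body that were called in both genotypes, the differences were 0.79, 0.82 and -0.27, the last at 50.0 kb upstream. The 50.0 kb element, in an intron of B130024G19Rik, covered 450 bp in WT and 750 bp in Shh-/-, the reverse of the order at the 8 distal elements.

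**Figure D2:**
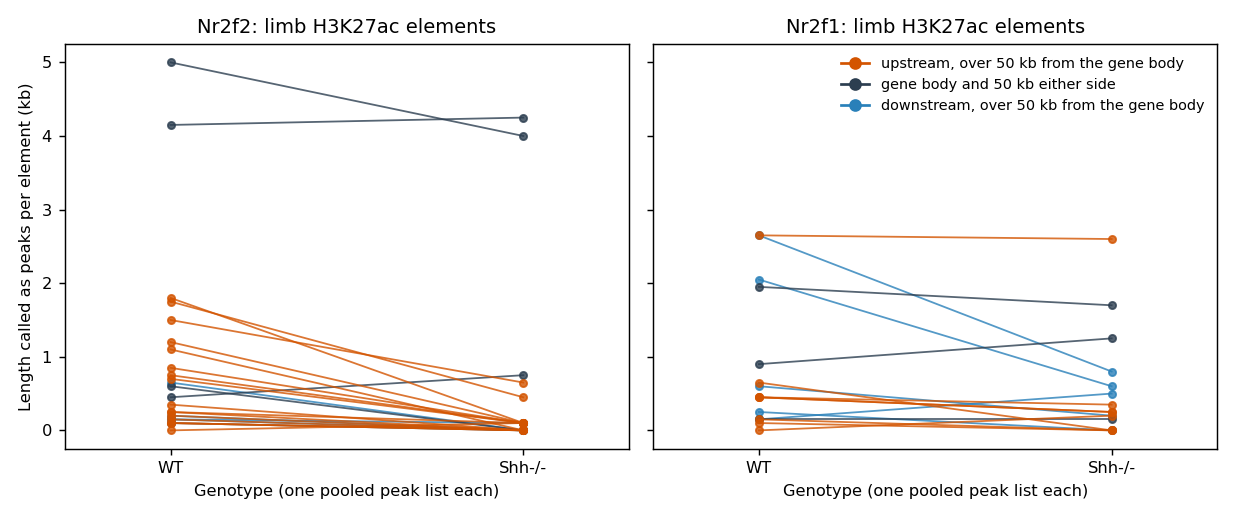
Length called as H3K27ac peaks (y axis, kb) in WT and Shh-/- limb for each element, with a line joining the values of an element; left Nr2f2, right Nr2f1, coloured by position relative to the gene. A point at 0 means no peak. At Nr2f2 the pair of long gene elements stays between 4.00 and 5.00 kb in both genotypes, while the upstream elements reach 1.80 kb in WT and at most 0.650 kb in Shh-/-.

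Of the 31 distal upstream WT peaks, 15 stood in the better-ranked 50% of the list. Over the whole window, the 34 WT peaks with no Shh-/- peak (25 upstream, 5 downstream and 4 near the gene) had a median width of 175 bp and stood at a median 67.7% of the list, where the 14 overlapping ones had 725 bp and 23.1%. Of the 34, 9 lay within 500 bp of a Shh-/- peak, and the farthest was 164801 bp from the nearest. The best-ranked of them (chr7:70625500-70625999, 259.0 kb upstream, rank 12995, log2 ratio 3.71) had a Shh-/- peak 401 bp away. The next were at 377.3 kb (rank 13478, log2 ratio 3.68) and 446.4 kb (rank 13682, log2 ratio 3.66), with Shh-/- peaks 301 bp and 351 bp away. The peaks at 259.0 and 446.4 kb were flanks of elements whose best-ranked WT peak overlapped a Shh-/- peak. The peak at 377.3 kb was itself the best-ranked WT peak of its element, where the 100 bp Shh-/- peak overlapped no WT peak. An element with no Shh-/- peak at all lay 148.2 kb upstream (chr7:70514250-70515549, 1100 bp in WT, best rank 18388, log2 ratio 3.37).

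H3K4me2 at Nr2f2 had more peaks in WT over the whole lists but not in their better-ranked 50%, which held 15 WT and 16 Shh-/- peaks of the window. Of these, 40.0% (19.8 to 64.3) and 37.5% (18.5 to 61.4) lacked a counterpart. Over all chromosomes at that setting, 3844 of 18294 WT and 3998 of 19237 Shh-/- peaks lacked a counterpart. Both intervals include these whole-list shares. In the full window 18 of 44 WT peaks had no Shh-/- peak, 40.9% (27.7 to 55.6), beside 25.7% of all 36585, and 5 of 34 Shh-/- peaks had no WT peak, 14.7% (6.45 to 30.1), beside 22.5% of all 38468. The best-ranked H3K4me2 peak of the window lay in an intron, just before the downstream start, in both genotypes, at rank 292 in WT (chr7:70361950-70362649, log2 ratio 4.91) and rank 1878 in Shh-/- (chr7:70361950-70362899, log2 ratio 4.42). Of the 14 elements with H3K4me2 in both genotypes, 7 were wider in WT, 3 in Shh-/- and 4 equal, where 60.5% of 18059 elements in the whole lists were wider in WT. Upstream of 50 kb the lists held only 10 and 6 peaks. At the element near 258 kb H3K4me2 covered 1450 bp in WT and 850 bp in Shh-/- (log2 ratios 3.74 and 3.10), a smaller gap than that of H3K27ac at the same place. Of the 31 distal WT H3K27ac peaks 6 overlapped a WT H3K4me2 peak, 19.4% (9.19 to 36.3). Over the gene it was 8 of 11, and over all WT H3K27ac peaks 32.1%.

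In NIH3T3 cells the Nr2f2 window differed between the sides of the gene. Purmorphamine had 192 H3K27ac peaks covering 123 kb and the control 113 covering 86.0 kb. No control peak overlapped 119 of the 192, 62.0% (54.9 to 68.5), beside 36.5% of all 87779 purmorphamine peaks, and no purmorphamine peak overlapped 39 of the 113, 34.5% (26.4 to 43.7), beside 41.1% of all 90989 control peaks. Among the 21938 gene windows, 99 (0.451%) held more purmorphamine peaks without a control peak than Nr2f2, where the median was 10. H3K27ac in NIH3T3 was not part of the limb contrast that picked the locus, but the locus was picked with these lists known.

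Upstream, more than 50 kb from the gene body, 99 of 138 purmorphamine peaks had no control peak, 71.7% (63.7 to 78.6), and 7 of 49 control peaks had no purmorphamine peak, 14.3% (7.10 to 26.7). Downstream the order of the shares was reversed: 7 of 21 purmorphamine peaks, 33.3% (17.2 to 54.6), and 25 of 36 control peaks, 69.4% (53.1 to 82.0). The downstream purmorphamine interval includes the whole-list share of 36.5%, and the control interval lies above that of 41.1%. Covered length was 71.3 kb with purmorphamine and 34.7 kb in the control upstream, and 7.40 kb and 15.7 kb downstream. Joined over gaps of up to 1 kb, the upstream side held 28 elements with purmorphamine peaks only and 0 with control peaks only, and the downstream side 0 and 8. How common such elements were over the whole lists was not computed. Of elements called in both conditions, purmorphamine covered more in 17 of 20 upstream and in 3 of 10 downstream, where the share over all 28309 such elements was 38.6%. Their median difference in log2 ratio, purmorphamine minus control, was 0.30 upstream and 0.01 downstream, beside 0.04 over all such elements. In peak height the downstream elements called in both conditions thus showed no reversal.

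**Figure D3:**
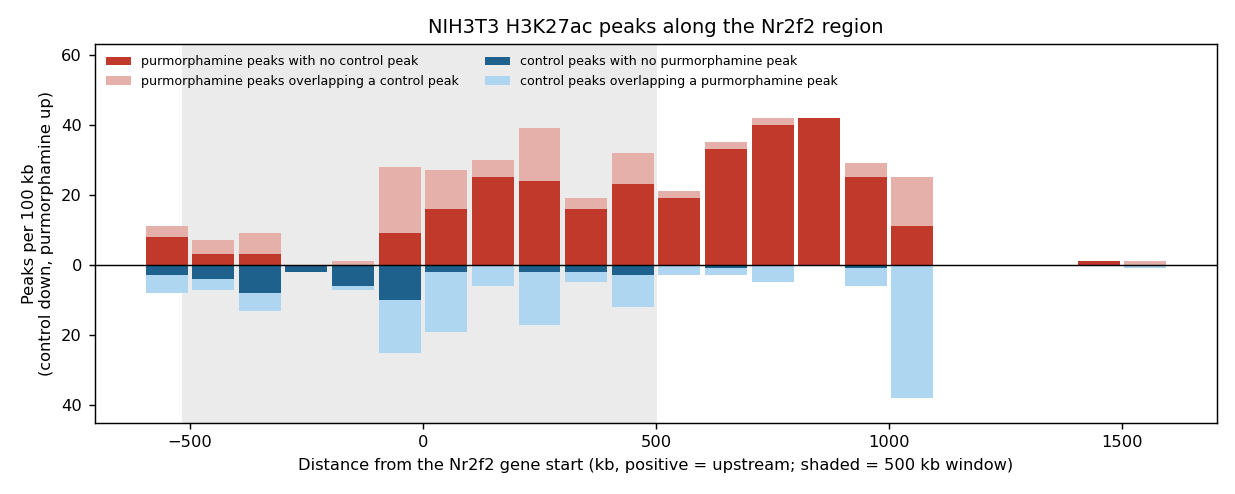
NIH3T3 H3K27ac peaks counted in 100 kb steps by distance from the Nr2f2 gene start (x axis, kb, positive upstream), purmorphamine above and control below the zero line; dark bars count peaks with no peak of the other condition and pale bars overlapping ones, and the grey band is the 500 kb window. Purmorphamine peaks without a control peak number from 16 to 25 in each step from 0 to 500 kb upstream and go on beyond the band, while in the downstream steps from -400 to -100 kb control peaks without a purmorphamine peak are the more frequent.

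The gene itself was among the most strongly acetylated places in both fibroblast lists. The peak over the upstream part of Nr2f2 (chr7:70361900-70368999, 7100 bp) ranked 11 of 87809 with purmorphamine, with a log2 ratio of 5.84. In the control the matching peak (chr7:70361850-70368199, 6350 bp) ranked 63 of 91023, with 5.54. The peak over the rest of the gene spanned the same 10500 bp in both conditions (chr7:70351250-70361749), with rank 371 and log2 ratio 5.29 under purmorphamine and rank 61 and 5.54 in the control. Unlike in the limb, the upstream start lay inside the acetylated stretch.

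The distal element with the best purmorphamine rank stood at 266.1 kb upstream. Its purmorphamine peak (chr7:70630050-70636349, 6300 bp) ranked 174 with a log2 ratio of 5.49, and the best control peak of the element ranked 2901 with 4.60. The control list ranked the elements at 51.3 and 207.7 kb better than this, at 978 and 1373. At 51.3 kb the element chr7:70404150-70431999 covered 20950 bp with purmorphamine and 8850 bp in the control, with best ranks of 405 and 978. At 446.6 kb (chr7:70808200-70818499) purmorphamine covered 7200 bp (best rank 4034, log2 ratio 4.56) and the control 100 bp (rank 76108, log2 ratio 2.21), the largest difference in log2 ratio among the 20 upstream elements called in both conditions. At 207.7 kb (chr7:70569600-70579299) the conditions were close, with 7350 bp and 6450 bp and log2 ratios of 4.64 and 4.91. The element 279.4 kb upstream was wider in the control, 3800 bp against 2100 bp.

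Downstream, the element at -330.1 kb (chr7:70033850-70039449) covered 2500 bp with purmorphamine and 4450 bp in the control, with log2 ratios of 3.71 and 4.24. At -99.6 kb (chr7:70265350-70268949, Gm29683, a long noncoding RNA gene) the values were 1100 bp and 2050 bp, with 2.72 and 3.94. Both elements were higher in the control, while over the 10 downstream elements called in both conditions the log2 difference ran from -1.23 to 0.50. The best-ranked control peak with no purmorphamine peak anywhere in the window (chr7:70213700-70214049, rank 29563, log2 ratio 3.13) also lay in an intron of Gm29683, 51951 bp from the nearest purmorphamine peak. The best-ranked purmorphamine peak with no control peak (chr7:70404150-70405499, 1350 bp, rank 15401, log2 ratio 3.89) overlapped an exon of B130024G19Rik.

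The upstream surplus did not stop at the window's end. From 500 to 1100 kb upstream of Nr2f2, a stretch chosen after its peaks were seen, 170 of 194 purmorphamine peaks had no control peak, 87.6% (82.3 to 91.5), and 2 of 55 control peaks had no purmorphamine peak. From 1100 to 2000 kb the lists held 2 and 7 peaks. The limb lists were sparse over the first of these stretches, with 3 WT and 2 Shh-/- H3K27ac peaks. Over the 70 to 75 Mb block as a whole the fibroblast shares with no peak of the other condition were 44.7% (41.4 to 48.1) of 834 purmorphamine and 41.2% (37.6 to 45.0) of 677 control peaks. In the limb the same block had 102 of 167 WT peaks without a Shh-/- peak, 61.1% (53.5 to 68.1), of which the Nr2f2 window held 33.

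The GLI matches printed above lay in purmorphamine peaks that no control peak overlapped, at rank 35202 (chr7:70426850-70427199, 350 bp, log2 ratio 2.95, introns of B130024G19Rik and Gm44532) and rank 24289 (chr7:70515850-70516949, 1100 bp, log2 ratio 3.38, between genes). They make up 1.04% of the 192 peaks, beside 0.725% of all purmorphamine peaks. The 48 WT and 19 Shh-/- limb H3K27ac peaks of Nr2f2 held 0 matches, beside 0.401% and 0.266% of the whole lists. AGGTCA was found on either strand in 6 of the 48 WT peaks (12.5%, beside 19.4% of all WT peaks) and in 51 of the 192 purmorphamine peaks (26.6%, beside 26.8%). Direct repeats of AGGTCA with 1 base between, the arrangement known as DR1, were in 0 of the 661 peaks, and in 0.134% of all purmorphamine peaks. Peak widths differ between lists, and wider peaks have more room for a match.

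Limb and fibroblast regions were compared by position. Of 48 WT limb H3K27ac peaks at Nr2f2, 24 overlapped a purmorphamine peak, 50.0% (36.4 to 63.6), beside 38.3% of all WT peaks, and 16 overlapped a control peak, 33.3% (21.7 to 47.5), beside 38.2%. Over the gene 10 of 11 overlapped a peak of both fibroblast lists. Of the 31 distal upstream peaks 6 overlapped peaks of both, 8 a peak of the purmorphamine list only, 0 of the control list only and 17 of neither. By list that was 14 for purmorphamine, 45.2% (29.2 to 62.2), and 6 for the control, 19.4% (9.19 to 36.3). Purmorphamine also had more peaks in this zone, 138 covering 71.3 kb against 49 covering 34.7 kb. Whole-list shares for overlap with a single fibroblast list only were not computed. Of the 6 downstream WT limb peaks 0 overlapped a peak of either list. The best-ranked purmorphamine peaks without a control peak included 1 at 447.6 kb (chr7:70813600-70815149, rank 22107, log2 ratio 3.40), on the limb element at 447.4 kb that covered 1500 bp in WT and 650 bp in Shh-/-.

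H3K27me3 in Shh-/- limb lay on either side of the acetylated core of Nr2f2. The window held 26 H3K27me3 peaks covering 19.5 kb. Joined over gaps of up to 5 kb, they formed 3 blocks of more than 1 peak. The first, chr7:70323400-70338649 (15.2 kb, 12 peaks, best rank 999 of 20846, log2 ratio 4.23), lay downstream of the gene, within and just beyond Gm29683. The second, chr7:70279650-70289649 (10.0 kb, 6 peaks), held the widest H3K27me3 peak of the window, 3600 bp at rank 1048 with a log2 ratio of 3.96. The third, chr7:70368150-70371099 (6 peaks, best rank 1903, log2 ratio 3.55), began 1.4 kb upstream of the upstream start and overlapped a WT H3K27ac peak of 100 bp (chr7:70369800-70369899). Between the blocks, from the last weak peak at chr7:70344950-70345049 to the third block, no H3K27me3 was called over the gene.

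None of the 26 overlapped a Shh-/- H3K27ac peak, which allows a share of up to 12.9% by the interval, beside 1.91% of all 20830 H3K27me3 peaks. Overlap with Shh-/- H3K4me2 was found for 9, 34.6% (19.4 to 53.8), beside 20.1%, and 8 of 34 Shh-/- H3K4me2 peaks overlapped H3K27me3, 23.5% (12.4 to 40.0), beside 11.4%. Far upstream, where H3K27ac was narrower in Shh-/- than in WT, the list held a single H3K27me3 peak of 100 bp (rank 18453), 203.4 kb from the gene start. No other H3K27me3 peak was called there.

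**Figure D4:**
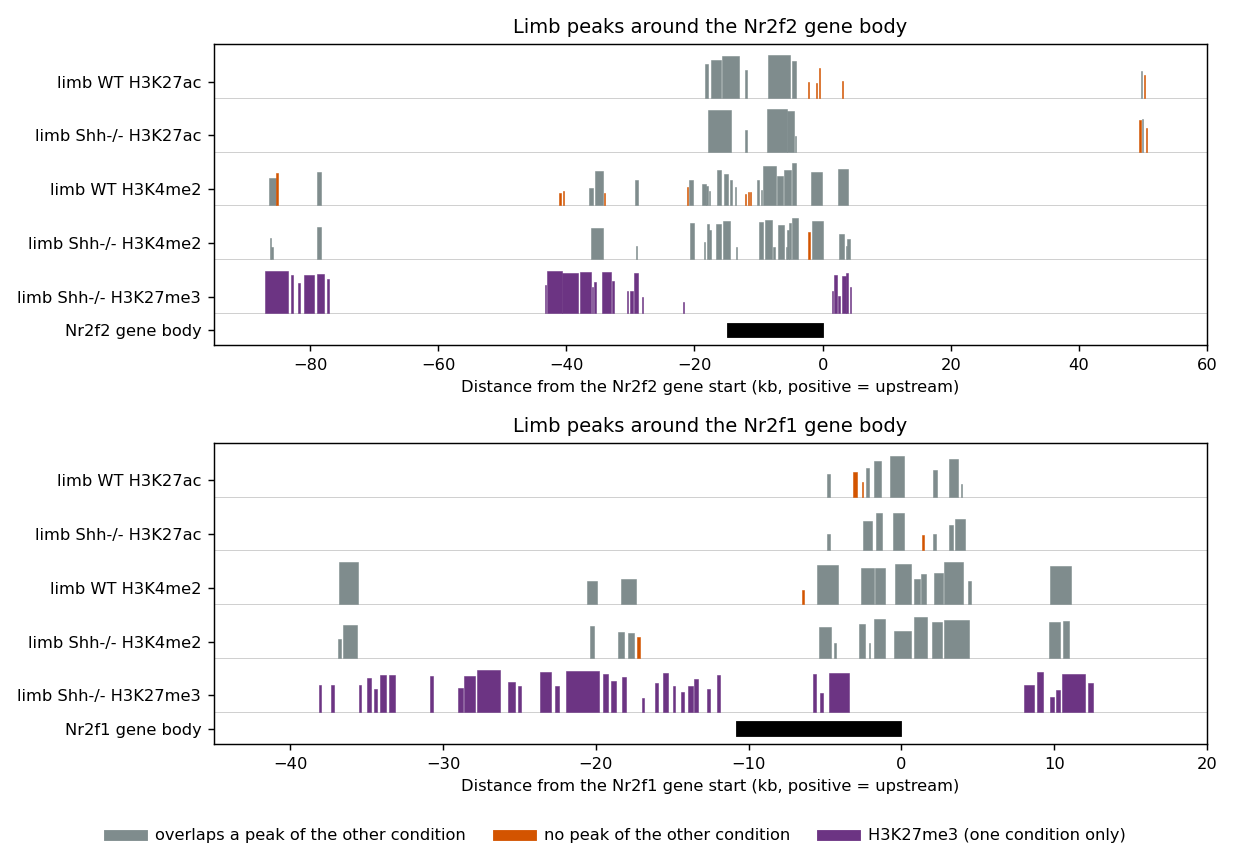
Limb peaks around the gene bodies of Nr2f2 (top) and Nr2f1 (bottom) by distance from the gene start (x axis, kb, positive upstream), a row for each limb list, with taller bars for better ranks; grey peaks overlap a peak of the other genotype, orange ones do not and H3K27me3 is purple. At Nr2f2 no H3K27me3 peak overlaps a Shh-/- H3K27ac peak, although a WT peak of 100 bp lies in the block just upstream; at Nr2f1 a 1350 bp H3K27me3 peak in the gene overlaps a 150 bp H3K27ac peak of both genotypes.

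At Nr2f1 the WT limb list held 32 H3K27ac peaks covering 13.6 kb and the Shh-/- list 25 covering 8.85 kb. No overlap was found for 18 of the 32, 56.2% (39.3 to 71.8), and for 9 of the 25, 36.0% (20.2 to 55.5), both intervals including the whole-list shares of 48.5% and 38.4%. A larger surplus of WT peaks than the 7 at Nr2f1 was found at 18.5% of protein-coding genes. Of 11 elements with peaks of both genotypes, 8 were wider in WT and 2 in Shh-/-, and the median difference in log2 ratio was 0.48.

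The promoter of Nr2f1 was acetylated in both genotypes at lower ranks than the Nr2f2 core. The peak over the gene start (chr13:78199000-78199949, 950 bp in WT) ranked 4460 with a log2 ratio of 4.74, and in Shh-/- (chr13:78199200-78199949, 750 bp) 7968 with 3.93. A second Shh-/- peak over a coding exon (chr13:78198100-78198499) ranked 7751 with 3.95, overlapping a WT peak of rank 12030 with 3.79. The order of the genotypes by rank thus differed between these neighbouring peaks.

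The best-ranked acetylated peak of the window was not at the promoter but 429.4 kb upstream, between genes. There the WT peak (chr13:78627800-78630449, 2650 bp) ranked 2564 with a log2 ratio of 5.21, and the Shh-/- peak (chr13:78628100-78630499, 2400 bp) 3209 with 4.74. Coverage of this element was 2650 bp and 2600 bp, nearly the same width in both genotypes. A neighbour at 425.0 kb (chr13:78624000-78625599) covered 650 bp in WT, with best rank 11419 and a log2 ratio of 3.84, and had no Shh-/- peak.

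The clearest gap between genotypes at Nr2f1 lay about 300 kb downstream, inside introns of Fam172a, a protein-coding gene whose body fills most of that side. At -306.8 kb (chr13:77890950-77894899), whose summit is printed above, WT covered 2650 bp with rank 5365 and a log2 ratio of 4.58, and Shh-/- 800 bp with rank 22235 and 3.00. At -301.8 kb (chr13:77896300-77899649) the values were 2050 bp and 600 bp, with log2 ratios of 3.98 and 3.54. At -322.7 kb they were 600 bp and 200 bp, with 3.53 and 2.77. An element near the far end of the window, at -491.2 kb and near the start of Fam172a, was the other way round, with 150 bp in WT and 500 bp in Shh-/- and log2 ratios of 2.45 and 3.33. None of the 13 WT peaks on that side overlapped WT H3K4me2, where 32.1% of all WT H3K27ac peaks did, and 1 overlapped an NIH3T3 peak. Of the 32 WT peaks of the window 10 overlapped a purmorphamine peak, 31.2% (18.0 to 48.6), and the same 10 a control peak. The interval includes the shares over all WT H3K27ac peaks, 38.3% for purmorphamine and 38.2% for the control. By zone the 10 were 9 of 9 over the gene, 1 of 13 downstream and 0 of 10 upstream.

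**Figure D5:**
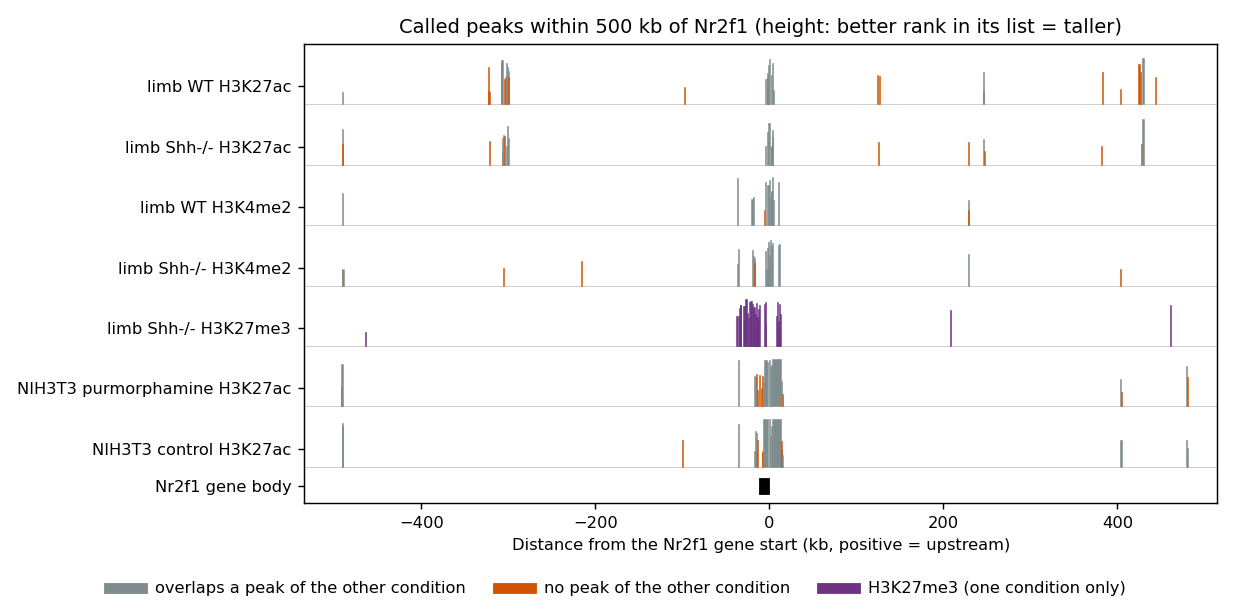
Peaks of the 7 lists by distance from the Nr2f1 gene start (x axis, kb, positive upstream), drawn as in the map of Nr2f2: taller bars have a better rank in their list, grey bars overlap a peak of the other condition, orange bars do not and H3K27me3 is purple. Fibroblast peaks gather over the gene, with 3 and 4 purmorphamine peaks farther than 50 kb downstream and upstream, while limb H3K27ac has distal groups about 300 kb downstream and 430 kb upstream.

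For H3K4me2 at Nr2f1 the intervals of the shares included the whole-list shares. In WT 2 of 17 peaks had no Shh-/- peak, 11.8% (3.29 to 34.3), and in Shh-/- 5 of 23 had no WT peak, 21.7% (9.66 to 41.9), beside the 25.7% and 22.5% given above. Of 11 elements 8 held peaks of both genotypes and 3 of Shh-/- only. The best WT peaks, at rank 586 (chr13:78202550-78203799, log2 ratio 4.73, 3.4 kb upstream in an exon of the antisense transcript A830082K12Rik) and rank 638 (chr13:78162950-78164199, log2 ratio 4.71, at the 3′ end of Fam172a), both had Shh-/- peaks. For the first the overlapping Shh-/- peak ranked 5854 with 3.95. For the second the better-ranked overlapping Shh-/- peak ranked 12326 with 3.52. That difference of 1.19 was the largest among the 8 elements.

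Nr2f1 had more H3K27me3 peaks than Nr2f2 but less covered length, 40 peaks over 16.6 kb against 26 over 19.5 kb. By number 1.94% of protein-coding genes had more H3K27me3 peaks in their windows than Nr2f1 and 7.67% more than Nr2f2. By covered length the figures were 13.7% and 11.3%. Of the 40, 28 stood in a single stretch of 26.2 kb just downstream of the gene (chr13:78161600-78187849), over 3110006O06Rik and Gm38604 and the end of Fam172a, with the best rank of 934 at chr13:78171950-78173499 (log2 ratio 4.34). Another 3 peaks lay in the gene body (chr13:78193950-78196349), the widest 1350 bp at rank 2512 over coding and untranslated exon sequence, and 6 lay 8.0 to 12.5 kb upstream. A Shh-/- H3K27ac peak overlapped 1 of the 40, 2.50% (0.443 to 12.9), beside 1.91% of all, by an acetylated peak of 150 bp in an intron of Nr2f1 (chr13:78194900-78195049). H3K4me2 overlapped 7 of the 40, 17.5% (8.75 to 31.9), beside 20.1%, and 6 of 23 H3K4me2 peaks overlapped H3K27me3, 26.1% (12.5 to 46.5), beside 11.4%.

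Fibroblast H3K27ac at Nr2f1 lay over the gene and its upstream flank in both conditions. Of 25 purmorphamine peaks 10 had no control peak, 40.0% (23.4 to 59.3), and of 23 control peaks 7 had no purmorphamine peak, 30.4% (15.6 to 50.9). Both intervals include the whole-list shares of 36.5% and 41.1%. The widest purmorphamine peak (chr13:78202550-78212549, 10000 bp) ranked 1409 with a log2 ratio of 4.99 and its control counterpart (chr13:78203650-78212599, 8950 bp) 432 with 5.12. Over the gene body a single control peak (chr13:78192000-78198649, 6650 bp) ranked 676 with 5.18, where purmorphamine had a 3950 bp peak at rank 4676 with 4.77, a 1650 bp peak at rank 9265 with 4.16 and a weak peak of 250 bp. All the unshared peaks of the gene region were narrow, up to 350 bp. The block from 8.0 to 12.5 kb upstream that carried H3K27me3 in Shh-/- limb lay inside this wide fibroblast peak.

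Presence of a peak at the promoters of COUP-TF relatives and partners was nearly the same between conditions, while ranks differed at some. The list held Nr2f6, Nr2e1, Nr2e3, Nr2c1 and Nr2c2 of the same receptor subfamily, the retinoid receptors Rara, Rarb, Rarg, Rxra, Rxrb and Rxrg, and Zfpm1, Zfpm2, Bcl11a and Bcl11b, cofactors that bind COUP-TFs. A promoter was taken as 2 kb before to 1 kb after an annotated start. Limb H3K27ac was present at 11 of the 15 promoters in WT and the same 11 in Shh-/-, and NIH3T3 H3K27ac at the same 9 in both conditions. H3K4me2 was present at 14 in WT and 13 in Shh-/-, Nr2e1 having 2 weak WT peaks and none in Shh-/-. H3K27me3 was called at 3, Nr2e1 (best rank 209), Rxrg (rank 13325) and Zfpm1 (rank 2158), and at both Nr2f1 and Nr2f2. The retinoid receptor Rarb had limb H3K27ac at similar ranks, 13619 in WT and 13486 in Shh-/-, and Bcl11a at 1046 and 1028. Nr2f6, the nearest relative, ranked 150 in WT and 309 in Shh-/-. Other ranks lay farther apart: 292 in WT and 1496 in Shh-/- for Rara, 4294 and 11109 for Rxra, and 9327 and 24576 for Zfpm1. In NIH3T3, Rxra ranked 409 with purmorphamine and 2507 in the control, with 3 purmorphamine peaks that no control peak overlapped. Nr2c2 ranked 2793 and 11044 there, and Zfpm1 13501 and 33025.

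At the ends of the windows the nearest peaks lay as follows. At Nr2f2 the outermost upstream peak inside was a purmorphamine peak of 300 bp ending 13286 bp before the edge, and the first outside another of 200 bp, 815 bp beyond it. Downstream the corresponding distances were 24606 bp and 5045 bp. At Nr2f1 they were 19408 bp and 4293 bp upstream, and 17827 bp and 105874 bp downstream.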

How the data were processed

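Both genes and all lists were chosen with earlier results of these data known, and the split into zones, elements, blocks and steps was made after the peaks had been seen. The sample labels gave the 7 ChIP conditions, each with 2 replicates and its own input. Per the submitters' processing notes reads were aligned to mm10 with Bowtie2 2.2.5, with limma also named. The authors called peaks with CisGenome on both replicates together against input. For each peak they deposited a rank, its position and length, a false discovery rate (a q-value), a score on which the rank is ordered, the maximum log2 ratio between ChIP and input, and −log10 of its minimum Poisson p-value, which stops at 100. These deposited values were used to rank, filter and describe peaks within a list. Log2 ratios of separate lists were made against separate inputs.

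Peaks on 19 autosomes, X and Y were used, 99.9% or more of each list, and none ended beyond its GRCm38 chromosome. Coordinates are as deposited, with both ends counted. A peak overlapped another when they had at least 1 bp in common. Genes were those of the basic GENCODE release M21. Zones lay more than 50 kb from the gene body by peak midpoint. Elements joined peaks of both conditions over gaps of up to 1 kb, and whole-list shares were computed only for elements called in both conditions. Motifs were exact matches on either strand. Interval functions were tested on simulated data and against bedtools 2.31.1, using Python 3.11.15 and pandas 2.3.3. Named peaks were those in promoter windows, the 3 best-ranked of each list, the 3 best-ranked with no peak of the other condition, the 3 widest H3K27me3 peaks, limb H3K27ac peaks with a GLI match (there were 0) and window ends. The purmorphamine peaks with a GLI match and the elements named were chosen after their values were seen. Promoter sequences are not reported here.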

Additional observations from a re-analysis of the deposited data

How the results depend on the processing

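No paired analysis was possible because each list pools both replicates, and for the same reason no replicate could be left out. Under other settings for overlap, rank, false discovery rate, merging and window, 22 values moved beyond their counting interval or by over 1.5 times and 44 did not. Counting a peak as shared when the other condition had a peak within 500 bp lowered the shares without a counterpart. At Nr2f2 they became 52.1% for WT and 5.26% for Shh-/- limb H3K27ac, 2.94% for Shh-/- H3K4me2, 47.4% for purmorphamine and 19.5% for control. At Nr2f1 they became 31.2%, 12.0%, 16.0% and 4.35% for WT, Shh-/-, purmorphamine and control H3K27ac. Over whole lists this setting gave 30.5% for WT and 20.9% for Shh-/- limb H3K27ac, 24.5% for purmorphamine and 26.9% for control. Of all Shh-/- H3K4me2 peaks, 4058 of 38468 had no counterpart at this setting. Requiring an overlap of 50% of the peak gave, at Nr2f2, 87.5% for WT H3K27ac, 59.1% for WT H3K4me2, 73.4% for purmorphamine and 46.0% for control, where whole lists gave 58.9%, 35.3%, 44.2% and 51.2%. Keeping the better-ranked 50% of every list gave 37.5% for Shh-/- H3K4me2 and 53.6% for purmorphamine at Nr2f2 (whole lists 20.8% and 26.8%), and 14.3% for Shh-/- and 9.09% for control H3K27ac at Nr2f1 (whole lists 29.3% and 30.4%). With a false discovery rate under 0.05, the WT H3K4me2 share at Nr2f1 became 0% (whole list 22.8%), and the H3K27me3 peaks numbered 23 at Nr2f1 and 17 at Nr2f2. Merging H3K27me3 peaks within 1 kb left 11 and 6. With 250 kb on either side, the Nr2f2 shares were 57.9% (36.3 to 76.9) for WT H3K27ac and 30.3% (17.4 to 47.3) for WT H3K4me2. Neither was counted as moved, but both intervals include the whole-list shares of 48.5% and 25.7%, unlike those of the full window. For purmorphamine the share there was 60.6% (51.0 to 69.4), above the whole-list 36.5%. Among settings chosen after seeing the data, counting gaps of up to 500 bp as shared gave 51.6% for distal upstream WT limb peaks and 60.1% for purmorphamine. With joining gaps of 500 bp, 1 kb and 2 kb, 8 of 8 distal limb elements called in both genotypes were wider in WT. The limb values come from the contrast that picked the locus, and the joining gaps regroup the same peaks, so they give no independent check.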
